A study of Mus musculus with 12 samples.

Results

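The clustered histone genes are the intronless or nearly intronless genes for linker histone H1 and the core histones H2A, H2B, H3 and H4 that stand side by side in the genome. Members were taken by symbol, as H1f0 to H1f6 or as H2ac, H2bc, H3c or H4c with a number, and 35 of the 23279 genes measured under 1 symbol carried such a name. They are 5 H1, 9 H2A, 11 H2B, 7 H3 and 3 H4 genes. By the RefSeq annotation of GRCm38.p6, 29 of them lie on chromosome 13 and 6 on chromosome 3. That annotation lists 64 protein-coding genes under these names, and the other members of the family are not analysed here.

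The series measured expression on 12 single-colour arrays, each made from 900 pg of total RNA from mice aged 6 to 8 weeks. The cells are labelled as inflammatory blood monocytes, and the sort took CD11b+ CD115+ cells with high Ly6C. By genotype label, 6 arrays are TRIM33 and 6 are WT. TRIM33 binds chromatin as a partner of SMAD proteins. Each genotype has 4 ordinary arrays and 2 with titles of mix 1 and mix 2, and the labels do not say what was mixed. The strain label of all 12 arrays, WT included, is C57BL/6 LyzCre. LyzCre is a recombinase made by cells that use a lysozyme gene, the myeloid lineage, and the labels do not say whether the WT mice have it. A treatment text in the labels describes sorted CD4 T cells instead, while the source names give monocytes. The 10 measured genes of a Ly6C-high monocyte list averaged 10.8 to 11.5 on the log2 scale on the TRIM33 arrays and 10.8 to 11.3 on the WT arrays. Trim33, the targeted gene, averaged 6.13 ± 0.0653 on the TRIM33 arrays and 6.92 ± 0.0794 on the WT arrays (SD, n = 6 each). Nothing in the labels ties an array to 1 animal, so the p-values describe spread between arrays and that spread may be technical.

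Core histones form the spool on which DNA is wound, and H1 binds where the DNA enters and leaves it. Most clustered histone genes are transcribed during S phase, when new DNA needs packaging, under control of the cofactor NPAT. Their mRNAs end in a stem-loop bound by SLBP instead of a poly(A) tail and are degraded when replication stops. Some members also give polyadenylated mRNA outside S phase, and H2bc21 is known in mouse olfactory neurons as a replication-independent H2B. H1f6, H2ac1 and H2bc1 are the testis types. Many core histone genes of 1 type have closely similar coding sequences, so array values of such sister genes may share signal from more than 1 copy. Sequence identity between the members was not computed here.

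Promoter windows from RefSeq (GRCm38.p6, 250 bases before to 50 after the start of the gene) were found for 31 of the 35 members, in 32 windows. The windows of 5 genes are shown because the results below turn on them. H2bc18 (chr3:96269450-96269749, plus strand) set the genotypes apart within each array set described later, and its chromosome 13 relative H2bc15 (chr13:21753826-21754125, plus strand) did not in either. H2ac4 (chr13:23750838-23751137, plus strand) differed most between the array sets. H2bc8 (chr13:23571150-23571449, plus strand) and its neighbour H2bc7 (chr13:23574158-23574457, minus strand) moved in opposite directions on the arrays titled mix 1. Capitals mark TATAAA (letters of the TATA box), CCAAT (the CCAAT box) and ATTTGCAT (the octamer known from H2B promoters) on either strand, and none of these matches overlap. They are matches of letters at any position in the window, and whether they work as promoter elements was not tested.
H2bc18: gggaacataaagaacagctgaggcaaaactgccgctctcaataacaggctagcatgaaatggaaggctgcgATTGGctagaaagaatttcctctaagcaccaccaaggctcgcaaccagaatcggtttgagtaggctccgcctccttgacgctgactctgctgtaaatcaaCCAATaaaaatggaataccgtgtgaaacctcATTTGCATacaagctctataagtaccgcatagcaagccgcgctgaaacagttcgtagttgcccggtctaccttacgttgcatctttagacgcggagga
H2bc15: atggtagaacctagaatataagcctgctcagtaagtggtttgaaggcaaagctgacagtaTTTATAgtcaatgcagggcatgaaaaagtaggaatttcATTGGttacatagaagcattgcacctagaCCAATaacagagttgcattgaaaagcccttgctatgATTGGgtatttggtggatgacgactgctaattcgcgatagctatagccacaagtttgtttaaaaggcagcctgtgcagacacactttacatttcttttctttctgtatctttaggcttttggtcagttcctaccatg
H2ac4: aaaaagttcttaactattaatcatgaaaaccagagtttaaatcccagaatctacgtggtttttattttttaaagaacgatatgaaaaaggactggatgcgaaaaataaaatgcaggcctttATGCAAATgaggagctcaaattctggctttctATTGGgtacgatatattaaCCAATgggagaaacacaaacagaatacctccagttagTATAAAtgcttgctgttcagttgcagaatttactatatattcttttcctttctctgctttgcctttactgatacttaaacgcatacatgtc
H2bc8: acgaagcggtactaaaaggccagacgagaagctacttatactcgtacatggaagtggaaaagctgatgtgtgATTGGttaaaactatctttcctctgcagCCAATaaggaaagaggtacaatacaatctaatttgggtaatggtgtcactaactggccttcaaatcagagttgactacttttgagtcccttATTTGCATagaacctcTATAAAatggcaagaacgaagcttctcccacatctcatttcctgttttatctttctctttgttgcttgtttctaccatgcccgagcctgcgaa
H2bc7: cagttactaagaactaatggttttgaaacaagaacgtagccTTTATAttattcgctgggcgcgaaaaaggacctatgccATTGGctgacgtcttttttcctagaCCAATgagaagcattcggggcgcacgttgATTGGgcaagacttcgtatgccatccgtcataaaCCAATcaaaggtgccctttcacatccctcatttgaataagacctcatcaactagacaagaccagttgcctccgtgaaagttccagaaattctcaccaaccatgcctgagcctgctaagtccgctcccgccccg
CCAAT was present in 29 of the 32 windows of members (90.6%), against 37.4% of all 32851 windows of the same length. TATAAA was present in 20 windows (62.5%, against 13.6% of all windows). ATTTGCAT was present in 10 windows (31.2%, against 1.74%), and 5 of these were among the 10 windows of H2B genes. Some windows overlap (H2bc8 with H2ac8, H2bc1 with H2ac1, H2ac22 with H2bc22), and H2bc6 has more than 1. The same letters can thus be counted more than once, and the windows are not independent. The E2F letters TTTCCCGC and TTTGGCGC were in 0 member windows, against 1.56% of all windows, which says only that those letters are not in these stretches. Of the windows shown, that of H2bc18 held ATTTGCAT without TATAAA, and that of H2bc15 held TATAAA on the opposite strand without ATTTGCAT. The TATAAA matches of H2bc15 and H2bc7 lie far upstream of the start. The window of H2bc18 holds the unmarked near match TATAAG close to the start. These letters therefore do not say which of the promoters has a TATA box.

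The 12 arrays fell into 2 sets that crossed genotype, and most histone genes differed between the sets. On 3 TRIM33 and 3 WT arrays Xist lay between 9.01 and 10.2 and Eif2s3y, a Y-linked gene, between 2.19 and 2.89. On the other 3 TRIM33 and 3 WT arrays Xist lay between 3.36 and 3.64 and Eif2s3y between 8.09 and 8.47. These are called the Xist set (TRIM33 4, 5 and 6 and WT 1, 2 and 3, as numbered within each genotype) and the Y set (TRIM33 1, 2 and 3 and WT 4, 5 and 6), and values are given in that order. Clustering of all genes without the histone genes gave the same sets, with a Pearson correlation of at least 0.986 between any arrays of 1 set and at most 0.967 across sets. All mix arrays lie in the Y set. The sets were found in the data and are no groups of the study, so differences between them are given as descriptions with no test. The mean of 28 S phase genes was 8.13 to 8.30 on the arrays of the Xist set, against 5.31 to 5.73 on those of the Y set. That of 18 G2 and M phase genes reached 9.11 on the Xist set arrays, against 5.26 at most on the Y set arrays. Mean levels of marker lists of other cells moved with the sets as well. The array means were 3.61 to 4.09 (Xist set) against 6.02 to 6.85 (Y set) for 6 erythroid genes. For 9 platelet genes they were 3.97 to 4.31 (Xist set) against 4.89 to 6.06 (Y set), and for 14 neutrophil genes 7.26 to 7.82 (Xist set) against 5.10 to 6.44 (Y set). For 10 genes of Ly6C-low monocytes they were 6.39 to 6.70 (Xist set) against 7.53 to 8.48 (Y set). For 8 progenitor genes they were 5.04 to 5.25 (Xist set) against 4.28 to 4.40 (Y set), for 5 T cell genes 3.09 to 3.45 against 3.61 to 4.20, and for 5 B cell genes 4.01 to 4.27 against 4.30 to 4.98. Single genes did not all follow these means. Of the erythroid genes 3 were lower in the Xist set and 3 higher, with set differences from -9.06 to 0.14. Of the B cell genes 3 were lower and 2 higher. Of the progenitor genes 7 were higher and 1 lower, with a median difference of 0.26 and a highest of 4.1. In the direction of their means lay 8 of 9 platelet, 11 of 14 neutrophil, 9 of 10 Ly6C-low and 5 of 5 T cell genes. The set differences of the neutrophil genes ran from -0.49 to 6.34, with a median of 1.82. The Ly6C-high monocyte list lay at 10.8 to 10.9 (Xist set) against 11.1 to 11.5 (Y set). Of the lists of other cells, that of 7 natural killer cell genes overlapped, at 3.95 to 4.45 (Xist set) and 4.13 to 4.47 (Y set). The part of these lists in the histone values was not tested. In bulk RNA, fewer cells of a type and less RNA per cell cannot be told apart.

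Of the 35 histone genes, 32 had a higher mean in the Xist set than in the Y set, against 50.3% of all genes. The median difference was 1.27 on the log2 scale over the members and 0.0015 over all genes. For 17 members (48.6%) every Xist set array lay above every Y set array, against a background of 7.45% of all genes, and for 0 members every Xist set array lay below (6.59% of all genes). A difference above 1 was seen for 18 members (51.4%) and for 2.8% of all genes. By type, arrays were separated for 2 of 5 H1, 6 of 9 H2A, 5 of 11 H2B, 3 of 7 H3 and 1 of 3 H4 genes. By cluster, they were separated for 14 of 29 genes on chromosome 13 and 3 of 6 on chromosome 3.

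**Figure D1:**
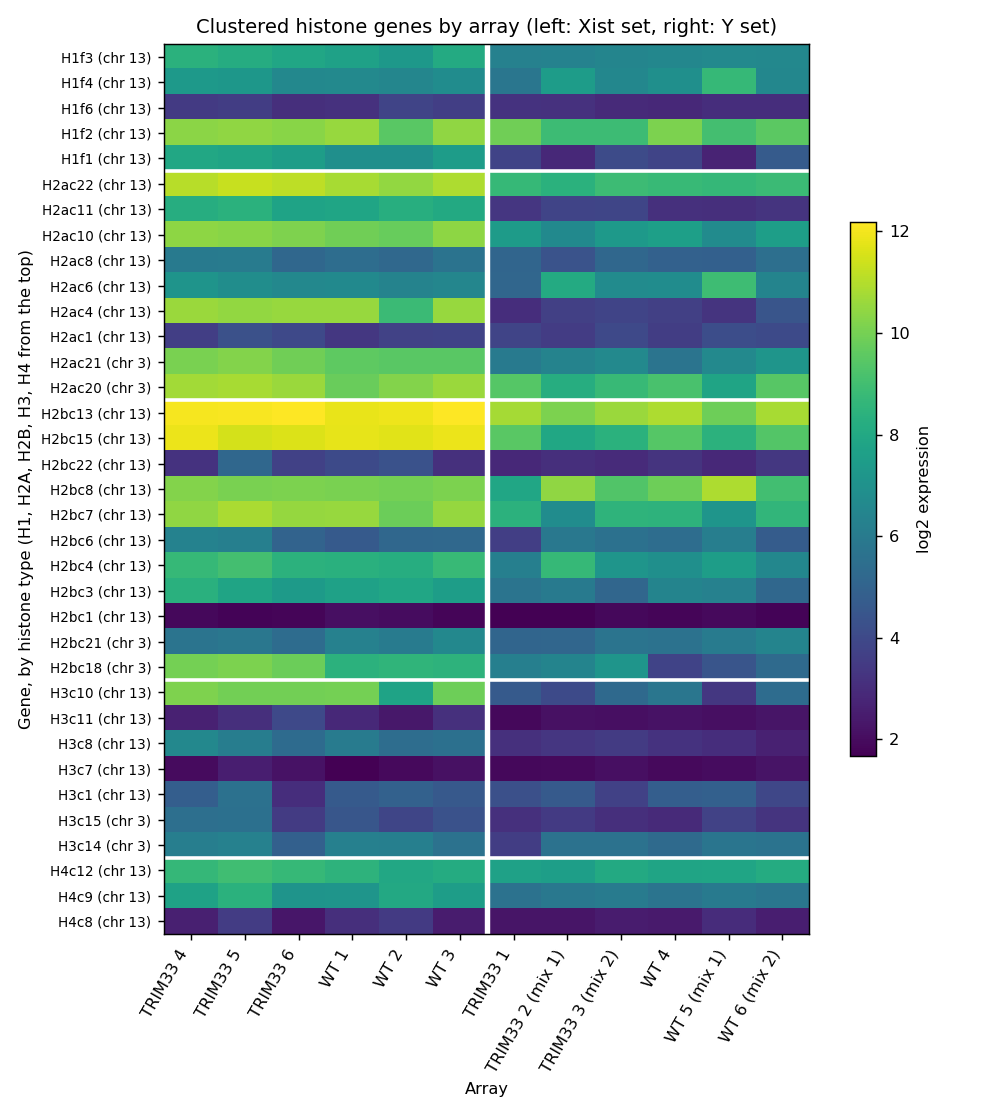
Log2 expression of the 35 clustered histone genes (rows, by type from H1 at the top to H4, with the chromosome) on the 12 arrays (columns, Xist set left and Y set right, TRIM33 left of WT in each set). H2ac4 reads at least 8.83 on the Xist set arrays and at most 4.43 on the Y set arrays, while H2bc1 and H3c7 are low throughout.

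The H2A genes held the widest gap. H2ac4 read 10.61, 10.49 and 10.54 on the TRIM33 arrays and 10.56, 8.83 and 10.56 on the WT arrays of the Xist set, against 3.05, 3.64 and 3.84 on the TRIM33 arrays and 3.66, 3.24 and 4.43 on the WT arrays of the Y set. The sets did not overlap and differed by 6.62 in their means, with WT 2 as the lowest array of the Xist set. H2ac11 read 8.23, 8.38 and 7.78 (TRIM33) and 7.85, 8.24 and 8.04 (WT) in the Xist set, against 3.35, 3.84 and 3.88 (TRIM33) and 3.14, 3.08 and 3.25 (WT) in the Y set, a difference of 4.66. H2ac21, on chromosome 3, read 10.07, 10.23 and 9.90 (TRIM33) and 9.57, 9.48 and 9.51 (WT) in the Xist set, against 6.01, 6.39 and 6.63 (TRIM33) and 5.71, 6.61 and 7.17 (WT) in the Y set, a difference of 3.38. For both, every array of the Xist set lay above every array of the Y set. H2ac22 read 11.06, 11.28 and 11.12 (TRIM33) and 10.82, 10.46 and 10.90 (WT) in the Xist set, against 8.72, 8.39 and 8.87 (TRIM33) and 8.73, 8.69 and 8.82 (WT) in the Y set, a difference of 2.24. H2ac10 read 10.41, 10.32 and 10.17 (TRIM33) and 9.90, 9.76 and 10.39 (WT) in the Xist set, against 7.44, 6.64 and 7.33 (TRIM33) and 7.58, 6.73 and 7.57 (WT) in the Y set, a difference of 2.94. H2ac20, on chromosome 3, read 10.71, 10.82 and 10.59 (TRIM33) and 9.77, 10.25 and 10.62 (WT) in the Xist set, against 9.42, 8.22 and 8.74 (TRIM33) and 9.17, 7.79 and 9.44 (WT) in the Y set, a difference of 1.66. None of these 3 genes overlapped between the sets, and the mix 1 arrays were the lowest for each of them. H2ac6 was the H2A gene that leaned furthest the other way, at -0.34, with overlapping sets, and the testis-type H2ac1, at 3.38 to 4.27 on all arrays, differed by -0.05.

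Among the H2B genes, H2bc18 differed by 3.68 between the sets, H2bc15 by 2.91, H2bc7 by 2.46, H2bc3 by 1.99 and H2bc13 by 1.53, and for each of these the sets did not overlap. H2bc13 read 12.06, 12.08 and 12.15 (TRIM33) and 11.86, 11.92 and 12.19 (WT) in the Xist set, against 10.75, 10.10 and 10.61 (TRIM33) and 10.89, 9.88 and 10.82 (WT) in the Y set. H2bc15 read 11.87, 11.53 and 11.64 (TRIM33) and 11.82, 11.71 and 11.89 (WT) in the Xist set, against 9.50, 7.92 and 8.37 (TRIM33) and 9.43, 8.42 and 9.36 (WT) in the Y set. For both, all 6 arrays of the Y set read below all 6 of the Xist set. H2bc21 differed by 0.30 and the testis-type H2bc1, at 1.67 to 2.09 on all arrays, by 0.10, each with overlapping sets. H2bc8 read 10.23, 10.06 and 10.10 (TRIM33) and 10.06, 9.98 and 10.10 (WT) in the Xist set, against 7.87, 10.43 and 9.32 (TRIM33) and 9.87, 10.89 and 8.99 (WT) in the Y set. Its sets differed by 0.52, with both mix 1 arrays of the Y set above the whole Xist set.

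H3c10 read 10.17, 9.95 and 9.96 (TRIM33) and 9.97, 7.75 and 9.85 (WT) in the Xist set, against 4.63, 4.01 and 5.27 (TRIM33) and 5.78, 3.36 and 5.40 (WT) in the Y set, a difference of 4.87 without overlap. WT 2 was again the lowest array of the Xist set. H3c8 read 6.56, 6.13 and 5.33 (TRIM33) and 6.03, 5.43 and 5.56 (WT) in the Xist set, against 3.14, 3.33 and 3.50 (TRIM33) and 3.22, 3.04 and 2.63 (WT) in the Y set, a difference of 2.69. H3c7 stayed between 1.70 and 2.56 on all arrays, below the median of all genes (4.24), and differed by 0.07. The H3 gene H3c14 on chromosome 3 differed by 0.65, and its sets overlapped.

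Of the H4 genes, H4c9 read 7.72, 8.37 and 7.12 (TRIM33) and 7.13, 8.02 and 7.52 (WT) in the Xist set, against 5.64, 5.86 and 6.02 (TRIM33) and 5.73, 5.98 and 5.78 (WT) in the Y set, a difference of 1.81 without overlap. H4c12 read 8.67, 8.95 and 8.70 (TRIM33) and 8.46, 7.97 and 8.15 (WT) in the Xist set, against 7.70, 7.56 and 8.05 (TRIM33) and 7.82, 7.84 and 8.14 (WT) in the Y set, a difference of 0.63 with overlap. H4c8, at 2.25 to 3.54 on all arrays, differed by 0.41 with overlap.

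Among the linker histones, H1f1 read 7.98, 7.83 and 7.51 (TRIM33) and 6.90, 6.92 and 7.48 (WT) in the Xist set, against 3.79, 2.88 and 4.09 (TRIM33) and 3.82, 2.71 and 4.68 (WT) in the Y set, a difference of 3.77. H1f3 read 8.40, 8.19 and 7.91 (TRIM33) and 7.69, 7.29 and 8.08 (WT) in the Xist set, against 6.29, 6.31 and 6.46 (TRIM33) and 6.53, 6.63 and 6.57 (WT) in the Y set, a difference of 1.46. The sets did not overlap for either gene. H1f2 read 10.36, 10.46 and 10.33 (TRIM33) and 10.58, 9.48 and 10.44 (WT) in the Xist set, against 9.90, 8.89 and 8.86 (TRIM33) and 10.11, 9.03 and 9.53 (WT) in the Y set, a difference of 0.89 with overlap from WT 2. H1f4 read 7.30, 7.24 and 6.58 (TRIM33) and 6.63, 6.49 and 6.79 (WT) in the Xist set, against 5.79, 7.50 and 6.52 (TRIM33) and 6.92, 8.71 and 6.51 (WT) in the Y set, a difference of -0.15 with overlap. The testis-type H1f6, at 2.88 to 3.84 on all arrays, differed by 0.42 with overlap.

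A list from knowledge of the family, possibly incomplete, gave H1f2, H2bc4 and H2bc21 as members with polyadenylated or replication-independent mRNA. These 3 and the 3 testis types were separated between the sets in 0 of 3 cases each. This compares with 17 of the other 29 members and 7.45% of all genes. At that share of all genes 0 of 3 is the likely count, so no trait of either group can be read from it. The set means of H1f2 and H2bc4 still differed by 0.89 and 1.42. The 3 testis types all had means below the median of all genes, where a gap has little room to show. H2bc4 read 8.73, 9.03 and 8.44 (TRIM33) and 8.35, 8.21 and 8.75 (WT) in the Xist set, against 6.19, 8.71 and 7.14 (TRIM33) and 6.92, 7.51 and 6.53 (WT) in the Y set. Its overlap came from TRIM33 2, a mix 1 array, which read as high as the Xist set.

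**Figure D2:**
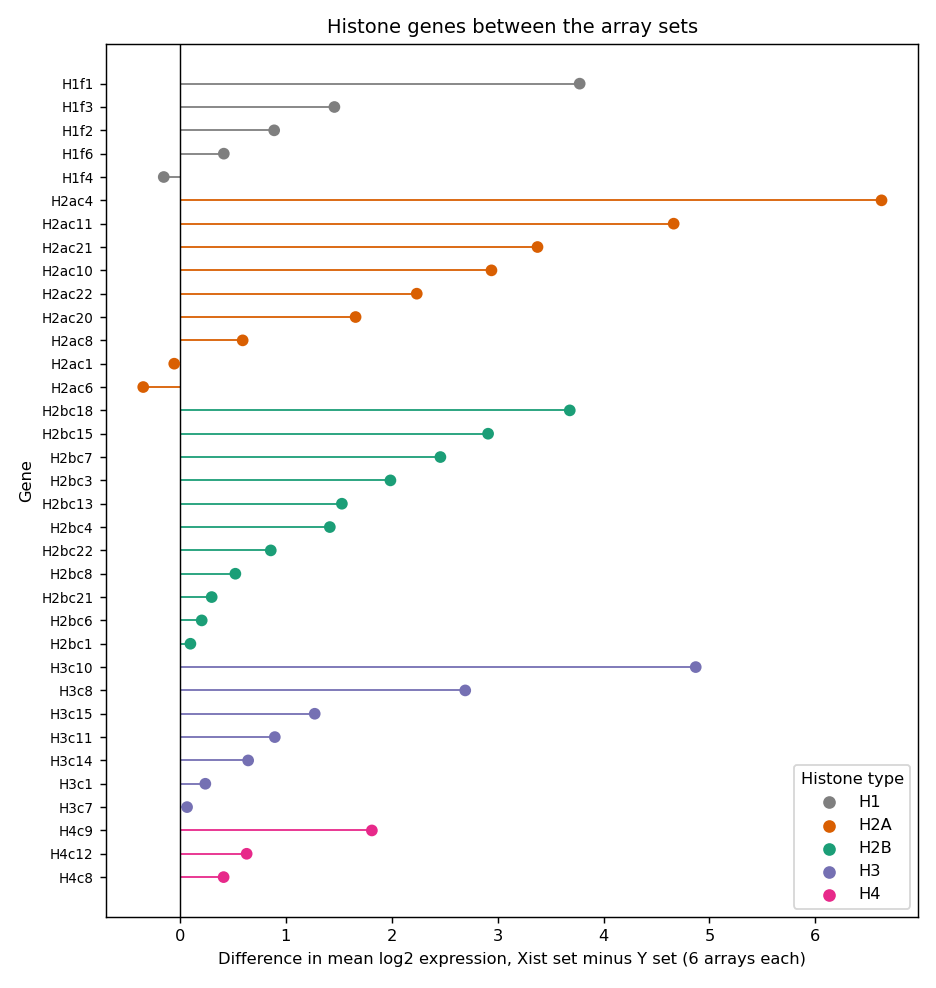
Difference in mean log2 expression, Xist set minus Y set (x axis, 6 arrays each), for each clustered histone gene (y axis), coloured by histone type. H2ac4 (6.62), H3c10 (4.87) and H2ac11 (4.66) lie furthest to the right, and H2ac6 (-0.34), H1f4 (-0.15) and H2ac1 (-0.05) lie left of 0.

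Between the genotypes, H2bc18 read higher on the TRIM33 arrays within each set and passed once the set was taken into account, while H2bc21 had a lower TRIM33 mean in each set and did not pass. Both genes lie in the chromosome 3 cluster. H2bc18, a core H2B gene, read 9.99, 10.09 and 9.81 on the TRIM33 arrays and 8.43, 8.55 and 8.48 on the WT arrays of the Xist set. In the Y set it read 6.19, 6.40 and 7.14 on the TRIM33 arrays and 3.77, 4.44 and 5.32 on the WT arrays. Every TRIM33 array lay above every WT array of its own set, but the TRIM33 arrays of the Y set lay below the WT arrays of the Xist set. Over all arrays H2bc18 averaged 8.27 ± 1.88 on the TRIM33 arrays and 6.50 ± 2.23 on the WT arrays (SD, n = 6 each), a difference of 1.77 (SE 1.05, limma, Benjamini-Hochberg adjusted p = 0.99998). With the array set as a block the SE of that difference was 0.226 (limma, adjusted p = 0.00383), with 6 of 6 TRIM33 arrays above the WT arrays of their own set. An exact two-sided permutation test gave p = 0.165 over all 924 assignments and p = 0.005 over the 400 assignments within sets, the smallest value these can give. Neither is adjusted for the choice of this gene. Any gene with its genotypes on the same side without overlap in both sets reaches that smallest value, which is 0.735% of all genes.

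Within the Xist set alone the H2bc18 difference was 1.48 (SE 0.130, limma, adjusted p = 0.00453), with 3 of 3 TRIM33 arrays above all WT arrays. Within the Y set it was 2.07 (SE 0.388, limma, adjusted p = 0.563), again with 3 of 3 above. The interaction of genotype and set was -0.59 (SE 0.442, limma, adjusted p = 0.996), so a difference between the sets in the size of this change did not pass. Levels of the S phase list overlapped between the genotypes within each set. The list averaged 8.13 to 8.30 on the TRIM33 arrays and 8.13 to 8.19 on the WT arrays of the Xist set, and 5.31 to 5.73 on the TRIM33 arrays and 5.42 to 5.60 on the WT arrays of the Y set. H2bc18 was the only member whose TRIM33 arrays lay on the same side of the WT arrays without overlap in both sets, a pattern met by 0.735% of all genes (0.412% in the higher direction).

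H2bc21, the replication-independent H2B, read 5.69, 5.83 and 5.38 on the TRIM33 arrays and 6.29, 6.04 and 6.56 on the WT arrays of the Xist set. In the Y set it read 5.09, 5.12 and 5.72 on the TRIM33 arrays and 5.62, 6.03 and 6.41 on the WT arrays. In the Xist set the genotypes did not overlap, with TRIM33 lower, while in the Y set TRIM33 3 lay above WT 4. It averaged 5.47 ± 0.323 on the TRIM33 arrays and 6.16 ± 0.335 on the WT arrays (SD, n = 6 each), a difference of -0.69 (SE 0.176, limma, adjusted p = 0.99998 over all genes). The block left it short of the threshold too (SE 0.152, limma, adjusted p = 0.293). Taken as a single value, it had an exact two-sided permutation p = 0.00866 over all assignments and p = 0.01 within sets, with no adjustment for the choice of this gene. The differences were -0.66 (SE 0.173) in the Xist set and -0.71 (SE 0.238) in the Y set.

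**Figure D3:**
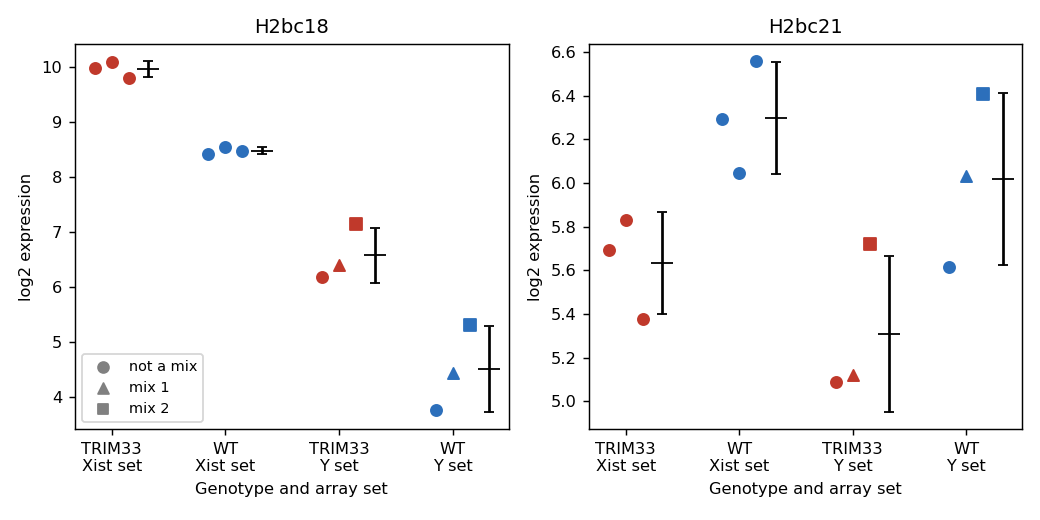
Log2 expression of H2bc18 and H2bc21 (y axes) on each array, by genotype within array set (x axis), with circles for arrays that are not mixes, triangles for mix 1 and squares for mix 2, and bars for the mean and SD of 3 arrays. H2bc18 lies higher on the TRIM33 arrays within both sets, at 9.81 to 10.09 against 8.43 to 8.55 in the Xist set, and H2bc21 tends lower.

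No other histone gene passed in any of these genotype comparisons. In limma without a block, 0 of 35 members passed an adjusted p of 0.05, against 0.0215% of all genes, and 1 member (H2bc21, lower) had an unadjusted p under 0.05, against 3.07% of all genes. With the set as a block, H2bc18 alone passed (1 of 35, against 0.0387% of all genes). At an unadjusted p under 0.05 there were then 3 members, H2bc18 and H2ac11 higher and H2bc21 lower, against 5.28% of all genes. No member had all 6 TRIM33 arrays on one side of all 6 WT arrays, against 0.198% of all genes. Over all arrays 23 of 35 members had a difference above 0 (45% of all genes), with a median of 0.10 (-0.01 over all genes).

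Most members had a positive difference in the Xist set and a negative one in the Y set, and apart from H2bc18 none of these passed. In the Xist set 28 of 35 were above 0 (45.8% of all genes) and the median was 0.30, against -0.02 over all genes. There 1 member, H2bc18, passed (0.0129% of all genes), and 8 were higher and 1 lower at an unadjusted p under 0.05 (2.38% and 2.61% of all genes). The 7 besides H2bc18 were H2ac21 at 0.55 (SE 0.133), H4c12 at 0.58 (SE 0.158), H1f1 at 0.67 (SE 0.189), H2ac22 at 0.43 (SE 0.151), H2bc6 at 0.84 (SE 0.319), H2ac20 at 0.49 (SE 0.200) and H1f3 at 0.48 (SE 0.208). In limma none of these 7 passed after adjustment over all genes. WT 2 was the lowest of the 6 Xist set arrays for 14 of the 35 members and TRIM33 5 the highest for 17. Leaving out 1 array at a time gave medians of 0.17 to 0.44 in the Xist set, 0.17 without TRIM33 5 and 0.21 without WT 2, with 25 to 31 members above 0.

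In the Y set 6 of 35 members were above 0 (47.4% of all genes), with a median of -0.16 against -0.01 over all genes. In limma 0 members passed there (0.0344% of all genes), and 2 (H2bc18 and H2ac11) were higher and 1 (H2bc21) lower at an unadjusted p under 0.05 (2.2% and 2.37% of all genes). Leaving out 1 array at a time gave medians of -0.23 to -0.06, with 6 to 14 members above 0, and TRIM33 1 was the lowest Y set array for 13 members. The interaction of genotype and set passed for 0 members in limma (0.0043% of all genes). At an unadjusted p under 0.05 it was positive for 3, H4c12 at 0.74 (SE 0.234), H1f3 at 0.70 (SE 0.253) and H2ac22 at 0.52 (SE 0.212), against 2.03% of all genes.

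**Figure D4:**
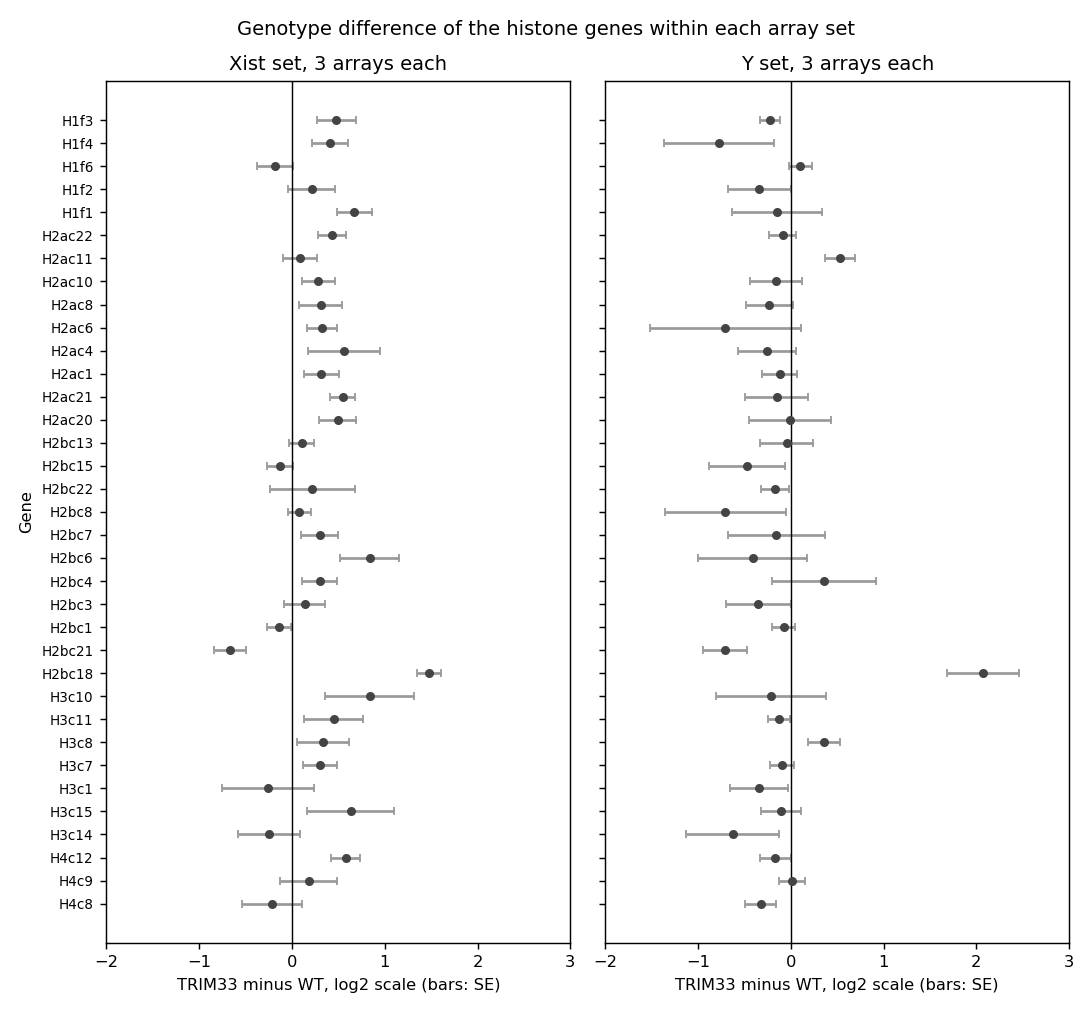
TRIM33 minus WT on the log2 scale (x axes, bars are SE) for each clustered histone gene (y axis) in the Xist set (left) and the Y set (right), with 3 arrays of each genotype. H2bc18 stands apart on the right in both panels, at 1.48 and 2.07, while most other genes lie right of 0 in the Xist set and left of 0 in the Y set.

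Over all arrays, where the SE holds the gap between the sets, the other chromosome 3 members gave differences below their SE or close to it. Of these genes, H2ac21 differed by 0.20 (SE 0.964), H2ac20 by 0.24 (SE 0.538), H3c15 by 0.27 (SE 0.479) and H3c14 by -0.44 (SE 0.389). H3c14 is the nearest measured histone neighbour of H2bc18, and it read 6.17, 6.29 and 4.89 (TRIM33) and 6.24, 6.21 and 5.63 (WT) in the Xist set and 3.57, 5.64 and 5.63 (TRIM33) and 5.30, 5.74 and 5.68 (WT) in the Y set. The genotypes overlapped for it in each set. Trim33 itself lies on chromosome 3, and 74 measured genes stand between it and H2bc18 in the RefSeq order. In limma 0 of these 74 passed without the block (0.0215% of all genes) or with it (0.0387%). On the same side without overlap in both sets lay 0, against 0.735% of all genes. At shares this small, counts of 0 among 74 genes do not set this stretch apart. At an unadjusted p under 0.05, 5 of the 74 (6.76%) were lower and 0 higher without the block, against 1.8% and 1.27% of all genes. With the block 9 (12.2%) were lower and 1 (1.35%) higher, against 2.84% and 2.44% of all genes.

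On chromosome 13, the genotype differences over all arrays ranged from -0.31 to 0.35. H3c8 differed by 0.35 (SE 0.772), H2bc4 by 0.33 (SE 0.513), H2ac11 by 0.31 (SE 1.30) and H3c10 by 0.31 (SE 1.43) at the upper end. H2bc8 differed by -0.31 (SE 0.410), H2bc15 by -0.30 (SE 0.844), H3c1 by -0.30 (SE 0.352) and H4c8 by -0.27 (SE 0.239) at the lower end. H2ac4, with the largest gap between the sets, differed by 0.15 (SE 1.87) between the genotypes. These SEs hold the spread between the sets, and with the block they were 0.181 for H3c8, 0.136 for H2ac11 and 0.295 for H2ac4 without bringing any of them past the threshold.

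Genes that serve histones did not pass between the genotypes either. In limma 0 of 121 genes on the lists of histone variants, histone mRNA transcription and processing, histone mRNA decay, chaperones, S phase and G2 and M phase passed without or with the block. Of all genes 0.0215% passed without it and 0.0387% with it. At an unadjusted p under 0.05, 1 (0.826%) was higher and 0 lower without the block, against 1.27% and 1.8% of all genes. With the block 4 (3.31%) were higher and 2 (1.65%) lower, against 2.44% and 2.84% of all genes. The 1 gene was H2az1, the replication-independent H2A.Z, at 11.0 ± 0.0865 on the TRIM33 arrays and 10.8 ± 0.107 on the WT arrays, a difference of 0.21 (SE 0.0747, limma, adjusted p = 0.99998). All 6 of its TRIM33 arrays lay above all 6 WT arrays. Such a lack of overlap, in either direction, was met by 1 of the 121 genes and by 0.198% of all genes. Among the 24 transcription and processing genes, Slbp, for the stem-loop binding protein, differed by -0.0018 (SE 0.455) and Npat by 0.03 (SE 0.148). These SEs hold the gap between the sets, and with the block they were 0.0825 for Slbp and 0.0902 for Npat. Among the 17 decay genes Exosc10, an exosome nuclease, differed by -0.23 (SE 0.114), and among the 22 chaperone genes Ubn1, a partner of the histone chaperone HIRA, differed by -0.19 (SE 0.0931). Between the sets, all Xist set arrays lay above all Y set arrays for 28 of 28 S phase, 18 of 18 G2 and M phase, 13 of 24 transcription and processing, 13 of 22 chaperone, 6 of 17 decay and 5 of 19 variant genes. Over all genes the share was 7.45%.

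Within the Y set, the 2 arrays titled mix 1 (TRIM33 2 and WT 5) differed from the other 4 arrays in part of the histone cluster, across genotype. This comparison was chosen after the values were seen and carries no test. Both mix 1 arrays lay outside the range of the other 4 with a mean difference over 1 for 9 of 35 members (25.7%), against 0.193% of all genes. Only 45 genes in all met this, and the 9 members are 20% of them. At a minimum difference of 0.5 it was met by 13 members (37.1%, against 1.8% of all genes), and at 2 by 1 member (2.86%, against 0.00859% of all genes). At any size, both mix 1 arrays lay above the other 4 for 6 members (7.59% of all genes) and below for 8 (7.28%).

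On the mix 1 arrays 5 members were higher by over 1. H2ac6 read 8.08 and 8.92 on mix 1 (TRIM33, then WT), against 5.15 and 6.76 on the other TRIM33 arrays and 6.78 and 6.41 on the other WT arrays of the Y set, a difference of 2.23. H1f4 read 7.50 and 8.71 on mix 1, against 5.79 and 6.52 (TRIM33) and 6.92 and 6.51 (WT), a difference of 1.67. H2bc8 read 10.43 and 10.89 on mix 1, against 7.87 and 9.32 (TRIM33) and 9.87 and 8.99 (WT), a difference of 1.65. For these 3 genes the mix 1 arrays also lay above all 6 arrays of the Xist set. H2bc4 differed by 1.42 and H2bc6 by 1.18 in the same direction. TRIM33 1, a Y set array that is not a mix, was the lowest of all 12 arrays for these 5 genes. Without it the differences were 1.85 for H2ac6, 1.45 for H1f4, 1.27 for H2bc8, 1.25 for H2bc4 and 0.77 for H2bc6, so that 4 members were higher and 4 lower by over 1, 22.9% of members against 0.176% of all genes.

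On the same arrays 4 members were lower by over 1. H3c10 read 4.01 and 3.36 on mix 1, against 4.63 and 5.27 (TRIM33) and 5.78 and 5.40 (WT), a difference of -1.58. H2bc7 read 6.77 and 7.15 on mix 1, against 8.45 and 8.51 (TRIM33) and 8.45 and 8.59 (WT), a difference of -1.54. H1f1 differed by -1.30 and H2ac20 by -1.18. All but H2ac20, on chromosome 3, belong to chromosome 13.

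The 5 higher members are neighbours in the chromosome 13 order of measured members, H2bc8, H2bc7, H2bc6, H1f4, H2ac6 and H2bc4, interrupted by H2bc7, which was lower. H2ac8, next to H2bc8 on the other side, differed by -0.56 on mix 1, below all 4 other arrays. The windows printed above for H2bc8 and H2bc7 both hold TATAAA (on opposite strands) and the CCAAT box, and of this pair H2bc8 alone holds ATTTGCAT. ATTTGCAT was found, and was missing, in windows of both higher and lower members. The window of H2ac8 overlaps that of H2bc8 and holds ATTTGCAT too, and H2ac8 was lower, by less than 1. That of H2ac20, lower, and that of H2ac6, higher, also hold it. H2bc6, higher, holds it at chr13:23585921-23586220 and lacks it in its window at chr13:23621045-23621344. Those of H1f4, higher, and of H3c10 and H1f1, lower, do not hold it. No window was found for H2bc4, higher. Whether these letters have a part in the mix 1 values was not tested. The S phase list averaged 5.60 to 5.73 on the mix 1 arrays and 5.31 to 5.52 on the other 4, and the chaperone list at least 6.98 on the mix 1 arrays and at most 6.96 on the other 4. Ly6C-low monocyte genes averaged 7.53 to 8.13 on the mix 1 arrays and 8.19 to 8.48 on the other 4, with no overlap. Neutrophil genes averaged 5.30 to 6.44 on the mix 1 arrays and 5.10 to 5.55 on the other 4, TRIM33 2 being the highest. Erythroid genes averaged 6.52 to 6.60 on the mix 1 arrays and 6.02 to 6.85 on the others, and platelet genes 5.42 to 5.75 against 4.89 to 6.06. What part these lists have in the mix 1 values was not tested.

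**Figure D5:**
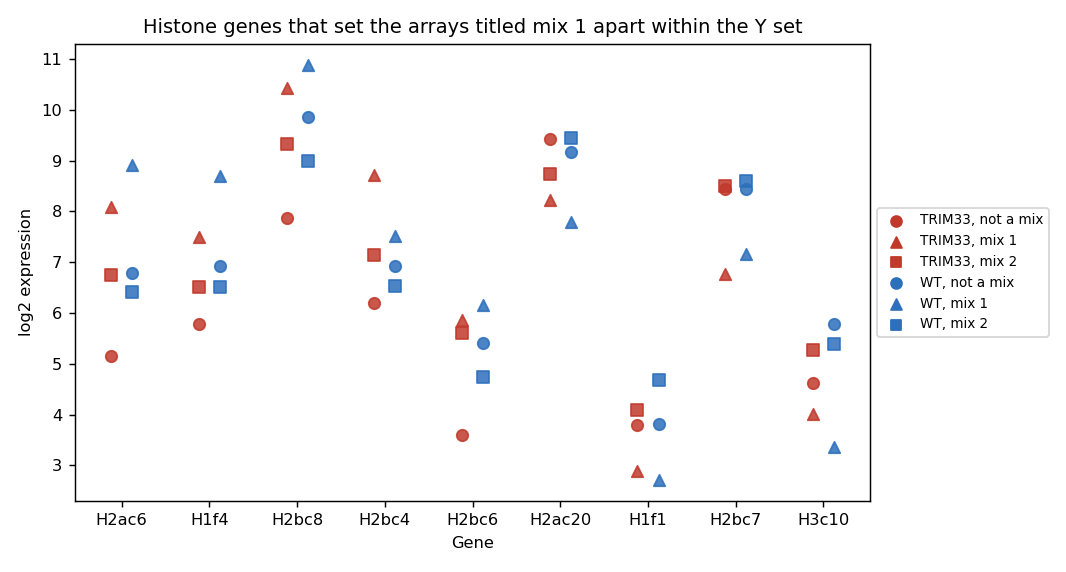
Log2 expression (y axis) of the 9 histone genes (x axis) that differed by over 1 between the mix 1 arrays and the other 4 arrays of the Y set, 1 point per array, with colour for genotype and shape for the mix title. The triangles of mix 1 lie above the other points for H2ac6, H1f4, H2bc8, H2bc4 and H2bc6 and below them for H3c10, H2bc7, H1f1 and H2ac20.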

How the data were processed

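Deposited log2 expression values, 1 per gene-level feature for 24479 features on 12 arrays, were made by the authors with RMA and Partek, per the submitters' processing notes, and no version is stated there. Per the labels' protocols, cDNA was prepared with the NuGEN Ovation PicoV2 protocol from 900 pg of RNA. RMA equalises array distributions and compresses differences of dim genes, and how the amplification primed mRNAs without a poly(A) tail is not stated. Neither the labels nor the notes name the chip definition or the genome build of the values, so coordinates appear only for RefSeq promoter windows. Array medians lay between 4.16 and 4.25, arrays carry no counting depth, and their number limits the precision.

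Symbols came from the platform annotation. Of the features, 1198 without a symbol were left out and the brighter feature was kept for 2 repeated symbols, which left 23279 genes. The feature for H1f0 had no symbol and is not analysed here. Genotype was fitted gene by gene over all 12 arrays (limma 3.58.1, lmFit then eBayes, under R 4.3.3), with Benjamini-Hochberg adjustment over all genes at a threshold of 0.05. The test was tried on simulated data. The same fit was run with the array set as a block, within each set and with an interaction. Exact two-sided permutation tests covered H2bc18 and H2bc21.

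Values by array are given for H2bc18 and H2bc21, members past the threshold without or with the block, the 10 of smallest p with the block, up to 3 of highest mean in each histone type, the 6 largest and 4 smallest set differences, and the polyadenylated and testis lists. Members below the median of all genes are given by their range. Of other lists, the genes of smallest p and Slbp and Npat were named. Members, lists and array sets were chosen with earlier results of these data known. The mix 1 comparison, its genes and the 5 promoters were chosen after their values were seen. Other choices tried were normalization, filters, variance models, array weights, mix titles as covariates or replicate block, and arrays left out in turn.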

Additional observations from a re-analysis of the deposited data

Results flagged for a closer look

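Each of the 35 histone genes was examined for single arrays far from the others of the same genotype, which gives 70 groups of 6 arrays, and 5 values stood out. Chance alone marks about 1 in 20 groups drawn from a single population. These groups span both array sets, whose gap widens the range, so an array far from the others of its own set, such as WT 2 for H2ac4 and H3c10, is not marked. On TRIM33 5, H2bc22 read 5.184, against 2.872 to 3.719 on the other TRIM33 arrays. On the same array H4c8 read 3.541, against 2.255 to 2.575. On WT 5, titled mix 1, H1f4 read 8.706, against 6.491 to 6.917 on the other WT arrays, and H2ac6 read 8.918, against 6.37 to 6.782. On WT 6, titled mix 2, H3c1 read 3.891, against 4.604 to 4.924.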

How the results depend on the processing

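The genotype difference of H2bc18 was positive under all 55 alternatives run, and whether it passed depended on the array set. In limma without a block it did not pass. It passed at 1.77 with the array set as a block, at 1.48 within the Xist set, at 1.71 on the arrays not titled as mixes with the block, at 1.74 without mix 1 and with the block, and at 1.77 with the set and mix 1 as covariates. Each of these settings, and the replicate block given further on, had 1 histone gene past the threshold, where the fit without a block had 0. Of all genes, 5 passed without a block. The number was 9 with the block, 3 within the Xist set, 8 within the Y set, 3 without moderation of the variance, 0 on the arrays not titled as mixes and 9 there with the block, 3 without mix 1 and 10 there with the block, and 10 with the set and mix 1 as covariates. Leaving out 1 array at a time, over the fits without a block, with it and within each set, gave 1.23 to 2.48 for H2bc18, 0 to 1 histone genes and 3 to 15 genes in all. With the block it gave 1.58 to 1.92 for H2bc18, past the threshold each time (limma, adjusted p of 0.00131 to 0.0174).

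The median of the histone genes, 0.10 over all arrays, was 0.30 in the Xist set and -0.16 in the Y set, and -0.23 to 0.44 when 1 array was left out of any of these fits. H2bc21 and H2bc1 were negative under every alternative run and passed under none. Of the 26 named members the other 23 changed sign under at least 1 alternative, and none of those values passed in any of them.

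The only numbers shared by both genotypes are those of mix 1 and mix 2. With the mix number as a replicate block on the mix arrays alone, H2bc18 differed by 1.89, 1 histone gene and 10 genes in all passed, and the median of the histone genes was -0.14. With 2 such pairs the arrays share a number and no more is known of a pairing. The fits that leave out mix 1, that add it as a covariate and that leave out arrays within a set were chosen after seeing the data. The mix 1 comparison rests on 2 arrays against 4, and dim members such as H3c7 and H2bc1 have little signal over background in which to see a difference.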
